A study of Mus musculus with 7 samples.

Results

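The insulin-like growth factor (IGF) axis was examined in RNASeq of the contused mouse spinal cord as 10 of the 21965 genes counted. They are the ligand genes *Igf1* and *Igf2*, the receptor genes *Igf1r* and *Igf2r*, and the binding protein genes *Igfbp2* to *Igfbp7*. These genes were chosen by name as the family, with earlier results of these data known. All 10 passed the filter on low counts. The further binding protein gene *Igfbp1* did not, at means of 0.0162 CPM in *Bmal1*-/- and 0.0382 CPM in WT. At dpi 3 after a moderate T9 contusion (50 kdyn), RNA of a 5 mm segment at the epicenter was compared between *Bmal1*-/- mice (n = 3, 2 females and 1 male) and WT C57BL/6 (C57BL/6J in the study's methods) mice (n = 4, 2 females and 2 males). Every mouse was a young adult with SCI, and uninjured cord was not analysed here. *Bmal1*-/- mice carried the germ-line Arntl tm1Bra null allele on the same background, which is not limited to any cell type, and were bred from heterozygous parents. WT mice were bought from a supplier except for 1 littermate of the knockouts, whose library the sources used here do not name.

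IGF1 and IGF2 are secreted growth factors that signal through the receptor tyrosine kinase made from *Igf1r*. The receptor made from *Igf2r* has no kinase and takes IGF2, along with lysosomal enzymes, into the cell. The IGF binding proteins (IGFBPs) hold the ligands outside cells, which can prolong their life or keep them from the receptor, and secreted proteases cleave the IGFBPs. In the injured central nervous system, microglia and macrophages are a known source of IGF1, while IGF2 and several IGFBPs are known products of the meninges and vessels.

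Total counts ran from 38529644 to 44096737 per library, with 1 library per mouse, and the spread between mice set the precision of the members, including *Igf2* at 20 to 184 counts. CPM denotes counts scaled to a common library total, with TMM factors applied. WT replicate 3 stood away from the rest of its group on a principal component plot. The targeted gene, *Arntl*, was higher in the libraries labelled *Bmal1*-/- (23.6 ± 0.94 CPM, SD, n = 3) than in WT (13.8 ± 1.5 CPM, SD, n = 4). A count over the whole gene does not show which exons the reads covered, so it cannot decide the label. *Gm45355*, a gene on the opposite strand that is not among the genes counted, overlaps *Arntl*. Of the clock genes that the study also assayed by qPCR, 3 are named here, after their values were seen, and they passed the edgeR quasi-likelihood test. Mean CPM was 6.00 in *Bmal1*-/- and 34.2 in WT for *Nr1d1* (Benjamini-Hochberg adjusted p = 0.000456), 8.45 and 30.4 for *Dbp* (adjusted p = 0.00328), and 42.15 and 14.1 for *Cry1* (adjusted p = 0.000456). Each direction below compares the libraries as labelled. Oligodendrocyte markers summed to 22306 to 33846 CPM over all libraries, so that the defining genes of the labelled tissue were present, and markers of macrophages, microglia, oligodendrocytes and neutrophils overlapped between genotypes. In bulk tissue, fewer cells of a type and less RNA per cell cannot be told apart.

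BMAL1 acts with CLOCK on the E-box CACGTG, and the start regions of the family are shown for that reason. RefSeq (GRCm38.p6) held windows of 300 bases, from 250 before to 50 after each annotated start, for all 10 members, 14 windows in total. Letters were searched on both strands. CACGTG, which reads the same on both strands, is in 7.15% of the 32851 windows of all genes. Among the members it is in the windows of *Igf2r*, at -48 and -7 from the start, and *Igfbp2*, at -142. The related AACGTG, found in 4.68% of all windows, is in none of the 14. TATAAA, found in 13.62% of all windows, is in those of *Igfbp4*, at -28, and *Igfbp6*, on the reverse strand at -148. GGGCGG, the core of a GC box, is in 35.66% of all windows. It occurs 4 times in the window of *Igfbp7* and 3 times each in those of *Igf2r* and *Igfbp2*. It also occurs 2 times in that of *Igf1r*, 2 times in 1 *Igf2* window and 1 time in another. The windows of *Igf1*, *Igfbp3*, *Igfbp4*, *Igfbp5* and *Igfbp6* held none. The 250 bases before the start, 5′ to 3′ on the gene's own strand, follow for the E-box pair (for *Igfbp2*, the first of its 2 starts) and for the pair whose RNA levels did not overlap between genotypes. Capitals mark CACGTG or TATAAA. The regions are chr17:12769707-12769956 (minus strand) for *Igf2r*, chr1:72824230-72824479 (plus strand) for *Igfbp2*, chr11:99040994-99041243 (plus strand) for *Igfbp4* and chr5:77408046-77408295 (minus strand) for *Igfbp7*.
Igf2r: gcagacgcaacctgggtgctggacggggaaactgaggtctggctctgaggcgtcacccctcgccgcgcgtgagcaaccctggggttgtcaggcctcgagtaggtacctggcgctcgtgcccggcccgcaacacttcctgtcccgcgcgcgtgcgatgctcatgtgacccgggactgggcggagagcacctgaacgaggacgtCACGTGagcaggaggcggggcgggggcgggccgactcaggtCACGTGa
Igfbp2: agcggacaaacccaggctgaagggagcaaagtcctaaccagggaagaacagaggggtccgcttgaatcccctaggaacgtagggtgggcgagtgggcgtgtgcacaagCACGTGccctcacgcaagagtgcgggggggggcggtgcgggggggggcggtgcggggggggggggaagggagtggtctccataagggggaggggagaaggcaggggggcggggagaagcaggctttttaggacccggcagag
Igfbp4: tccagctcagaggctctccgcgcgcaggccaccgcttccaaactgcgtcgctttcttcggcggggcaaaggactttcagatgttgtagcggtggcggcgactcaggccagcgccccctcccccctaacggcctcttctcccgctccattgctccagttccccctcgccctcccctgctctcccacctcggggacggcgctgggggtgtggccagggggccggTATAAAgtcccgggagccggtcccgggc
Igfbp7: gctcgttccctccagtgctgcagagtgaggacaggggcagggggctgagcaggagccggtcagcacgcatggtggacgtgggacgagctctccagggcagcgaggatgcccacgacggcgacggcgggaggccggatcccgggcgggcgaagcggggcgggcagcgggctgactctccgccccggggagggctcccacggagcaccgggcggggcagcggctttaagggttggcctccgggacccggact
The 4 windows are rich in G and C, at 70.7% for *Igf2r*, 67.0% for *Igfbp2*, 71.3% for *Igfbp4* and 73.3% for *Igfbp7*, where the median of all windows is 52.7%. A match of letters is a description and not a site of binding, and both E-box members overlapped between genotypes in their RNA levels.

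Of the 10 members, 1 fell and none rose in the *Bmal1*-/- libraries in the edgeR quasi-likelihood test, at a Benjamini-Hochberg adjusted p under 0.05 over 15743 genes. The member was *Igfbp4*. Over all genes tested, 0.915% were called lower, 0.654% higher and 1.57% in either direction. The *Bmal1*-/- values of 2 members, *Igfbp4* and *Igfbp7*, lay under every WT value, and those of no member lay above. Groups that did not overlap made up 26.9% of all genes, 13.5% lower and 13.4% higher, so that 2 of 10 is near this background. The same 2 members had an unadjusted p under 0.05, which 20.9% of all genes had. The log2 fold change was below 0 for 6 members and for 51.1% of all genes. The median log2 fold change was -0.49 over the members and -0.01 over all genes tested. With WT replicate 3 and *Bmal1*-/- replicate 2 both left out, an alternative added after seeing the data, 5 members were called lower (*Igf1*, *Igfbp4*, *Igfbp5*, *Igfbp6* and *Igfbp7*), beside 625 lower and 273 higher genes in all where the 7 libraries gave 144 and 103. In the edgeR test, *Igf1*, *Igfbp5*, *Igfbp6* and *Igfbp7* were called only with both libraries left out, where calls over all genes rose as well. DESeq2 called *Igfbp7* with all 7 libraries (adjusted p = 0.0230). The cause was not tested.

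**Figure D1:**
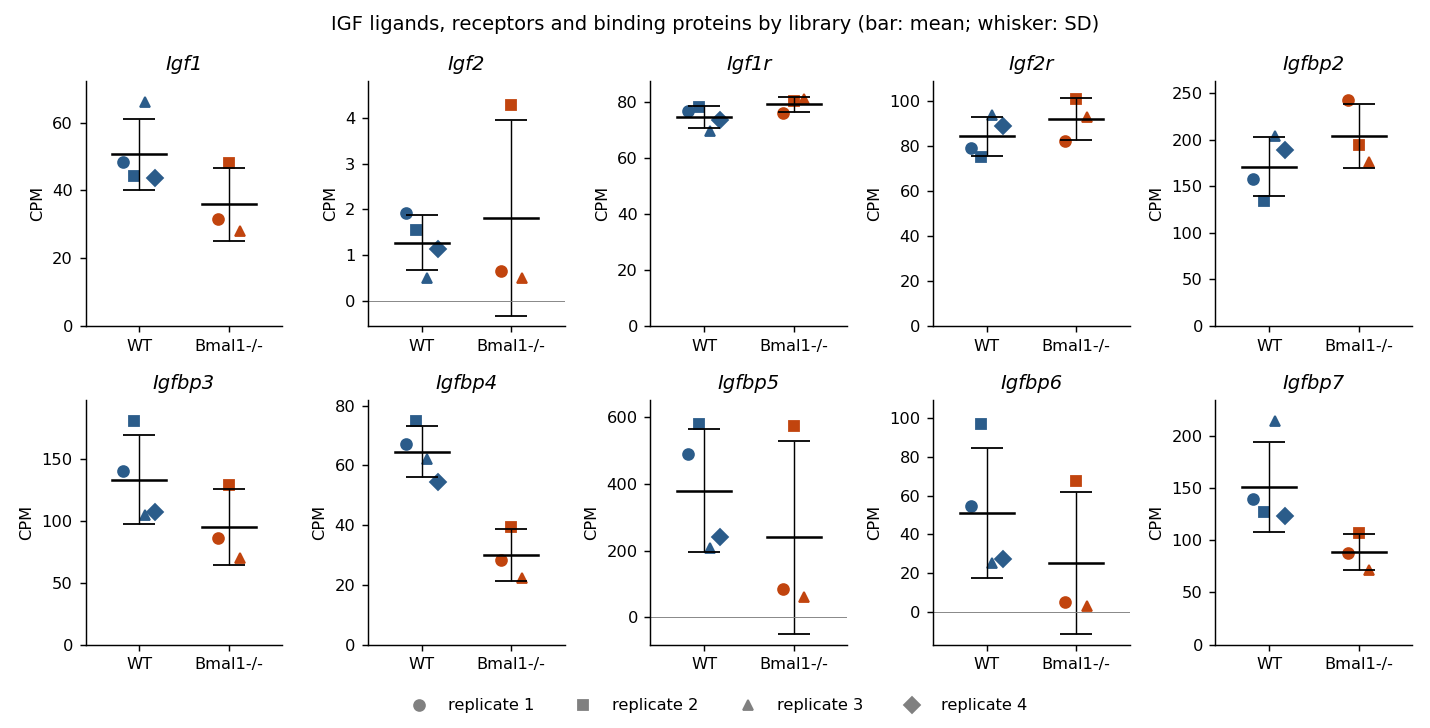
CPM (y axis) of each of the 10 genes in the 4 WT (blue) and 3 *Bmal1*-/- (orange) libraries, with a symbol per replicate number, the mean as a bar and the SD as whiskers. The *Bmal1*-/- points of *Igfbp4* (22.3 to 39.3 CPM) and *Igfbp7* (71.8 to 106.8 CPM) lie under all WT points, while *Igfbp5* and *Igfbp6* are split within the *Bmal1*-/- group.

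Among the ligands, *Igf1* (ENSMUSG00000020053, chr10:87858265-87937042 of GRCm38, plus strand) had 31.6, 48.1 and 28.0 CPM in *Bmal1*-/- replicates 1, 2 and 3. In WT replicates 1 to 4 it had 48.5, 44.2, 66.2 and 43.6 CPM. Replicates 1 and 3 of *Bmal1*-/- were below every WT library, whereas replicate 2 lay among them. The means were 35.9 ± 10.7 CPM (SD, n = 3) and 50.6 ± 10.6 CPM (SD, n = 4). This gave a log2 fold change of -0.50 (standard error, SE, 0.22), which did not pass (edgeR quasi-likelihood test, Benjamini-Hochberg adjusted p = 0.255). WT replicate 3 had the highest *Igf1*. It also had the highest sums of all 7 libraries for macrophage markers (4537 CPM against 2253 to 3088 in the other WT libraries) and for endothelial, mural, oligodendrocyte, neutrophil, red cell and cycling markers. Over the 7 libraries r between *Igf1* and the mean log2 level of the 13 marker lists ran from -0.83 (neuron) to 0.87 (mural), with 0.78 for the macrophage markers, and the part of these markers in its level was not tested. *Igf1os*, a gene on the opposite strand, overlaps *Igf1*.

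*Igf2* (ENSMUSG00000048583, chr7:142650766-142666816, minus strand) was the least abundant member. Its raw counts were 26, 184 and 20 in *Bmal1*-/- replicates 1, 2 and 3 and 75, 60, 20 and 45 in WT replicates 1 to 4. On the CPM scale these were 0.661, 4.27 and 0.507 against 1.91, 1.54, 0.499 and 1.13. *Bmal1*-/- replicate 2 was the highest of all 7 libraries, and the other 2 of its genotype were below 3 of the 4 WT libraries. The log2 fold change of 0.52 (SE 0.78) did not pass (edgeR quasi-likelihood test, Benjamini-Hochberg adjusted p = 0.691) and turned to -1.12 without *Bmal1*-/- replicate 2. *Igf2* shares exons with *Gm49394* on the same strand and *Igf2os* on the other, so its counts are uncertain. It lies 29.3 Mb from *Arntl* on the same chromosome.

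The receptors were the steadiest members. *Igf1r* (ENSMUSG00000005533, chr7:67952827-68233668, plus strand, 45.0 Mb from *Arntl*) had 76.0, 80.6 and 81.1 CPM in *Bmal1*-/- replicates 1, 2 and 3 and 76.8, 78.5, 69.7 and 73.8 CPM in WT replicates 1 to 4. The highest library exceeded the lowest by 1.07 times within *Bmal1*-/- and 1.13 times within WT, and the genotypes overlapped. Its log2 fold change was 0.09 (SE 0.06; edgeR quasi-likelihood test, Benjamini-Hochberg adjusted p = 0.406). *Igf2r* (ENSMUSG00000023830, chr17:12682406-12769664, minus strand) had 82.2, 100.8 and 92.6 CPM against 79.0, 75.0, 93.6 and 88.9 CPM. Here too the genotypes overlapped, with a log2 fold change of 0.13 (SE 0.10; same edgeR test, adjusted p = 0.459). *Airn*, an antisense RNA at this locus, overlaps *Igf2r*. For both receptors the change was at most 0.20 on the log2 scale in each fit without 1 library.

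*Igfbp4* (ENSMUSG00000017493, chr11:99041244-99054392, plus strand) encodes a binding protein that mostly restrains IGF action until it is cleaved. It had 28.3, 39.3 and 22.3 CPM in *Bmal1*-/- replicates 1, 2 and 3. In WT replicates 1 to 4 it had 67.0, 74.7, 62.0 and 54.4 CPM. The 3 *Bmal1*-/- libraries lay under the 4 WT libraries with a gap between the groups, and this was so among the females and among the males. The mean fell from 64.5 ± 8.54 CPM (SD, n = 4) to 29.9 ± 8.64 CPM (SD, n = 3). On the log2 scale the change was -1.11 (SE 0.20), with an unadjusted p of 0.000713 and a Benjamini-Hochberg adjusted p of 0.0473 in the edgeR quasi-likelihood test. By that p it ranked 236 of 15743 genes. The call stood close to the threshold. Among 7 fits lacking 1 library each, it was kept without *Bmal1*-/- replicate 2 (adjusted p = 0.0217) and without WT replicate 3 (adjusted p = 0.0336). In the other fits the adjusted p of the same edgeR test was 0.214 without *Bmal1*-/- replicate 1, 0.134 without *Bmal1*-/- replicate 3, 0.126 without WT replicate 1, 0.0897 without WT replicate 2 and 0.0825 without WT replicate 4. The size of the fall varied less than the call. Over the 7 fits the log2 fold change stayed between -1.35 and -0.94. Over all 16 alternatives the adjusted p ran from 1.1e-05, with DESeq2, to 0.214.

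*Igfbp7* (ENSMUSG00000036256, chr5:77349240-77408041, minus strand) encodes a low-affinity IGF binder that is abundant in vessel walls. Its levels were 87.8, 106.8 and 71.8 CPM in *Bmal1*-/- replicates 1, 2 and 3. In WT replicates 1 to 4 they were 139, 127, 214 and 123 CPM. No *Bmal1*-/- library reached the lowest WT library, and WT replicate 3 stood well above the other WT libraries. The means were 88.8 ± 17.6 CPM (SD, n = 3) and 151 ± 42.9 CPM (SD, n = 4). The change of -0.76 on the log2 scale (SE 0.23) had an unadjusted p under 0.05 and did not pass after adjustment (edgeR quasi-likelihood test, Benjamini-Hochberg adjusted p = 0.145). DESeq2 gave nearly the same change, -0.76, with an adjusted p of 0.0230. Without WT replicate 3 the change was -0.55. Exons of *Polr2b* on the opposite strand overlap those of *Igfbp7*.

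Marker sums of several cell types did not overlap between the genotypes, as was so for *Igfbp4* and *Igfbp7*. All 12 endothelial markers had log2 fold changes below 0, 1 of them called (*Cdh5*), and their sum was 591 to 663 CPM in *Bmal1*-/- and 691 to 1134 CPM in WT. Of 8 mural markers, 6 were below 0 and 1 was called lower (*Tagln*), with sums of 295 to 394 CPM and 606 to 837 CPM. The gap between these sums came mostly from *Tagln*, at means of 90.6 CPM in *Bmal1*-/- and 332 CPM in WT. The 2 mural markers above 0 were *Kcnj8* (0.09) and *Abcc9* (0.26), and every *Bmal1*-/- library exceeded every WT library for *Abcc9*. The sums of 5 cycling markers were 177 to 244 CPM and 294 to 519 CPM. Of 6 skeletal muscle markers, 5 were called lower, at summed levels of 4.98 to 6.27 CPM in *Bmal1*-/- and 43.4 to 55.7 CPM in WT. The 4 Schwann markers summed to 3.35 to 9.58 CPM and 19.5 to 235 CPM, and the 5 red cell markers to 26.1 to 60.0 CPM and 149 to 451 CPM. In each of these 6 marker sums the genotypes did not overlap, with all 5 cycling, all 6 muscle, all 3 tested Schwann and all 5 red cell markers below 0. All 8 neuron markers had log2 fold changes above 0 and none passed the test, with sums of 4588 to 5686 CPM in *Bmal1*-/- and 1747 to 4536 CPM in WT. Astrocyte markers were mixed, with 4 of 7 above 0 and a median of 0.02, and their sums of 14151 to 16841 CPM and 9576 to 13663 CPM were carried by *Gfap*. No marker was at 0 in all libraries. Over the 7 libraries, which share their depth, genotype and tissue piece across all genes, Pearson's r with the mean log2 level of the 13 marker lists ran from -0.55 (neuron) to 0.93 (Schwann) for *Igfbp4* and from -0.91 (neuron) to 0.95 (cycling and mural) for *Igfbp7*. These values hold the genotype difference. In the 4 WT libraries alone, *Igfbp4* had r = 0.98 with the Schwann, 0.97 with the fibroblast/meningeal, -0.07 with the mural and -0.80 with the muscle markers. It had -0.27 with the endothelial, -0.46 with the cycling and -0.10 with the red cell markers. *Igfbp7* had 0.98 with the endothelial, 0.97 with the red cell, 0.92 with the cycling and 0.82 with the mural markers. With the muscle and Schwann markers it had -0.38 and -0.22. The part of these markers in either result was not tested.

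**Figure D2:**
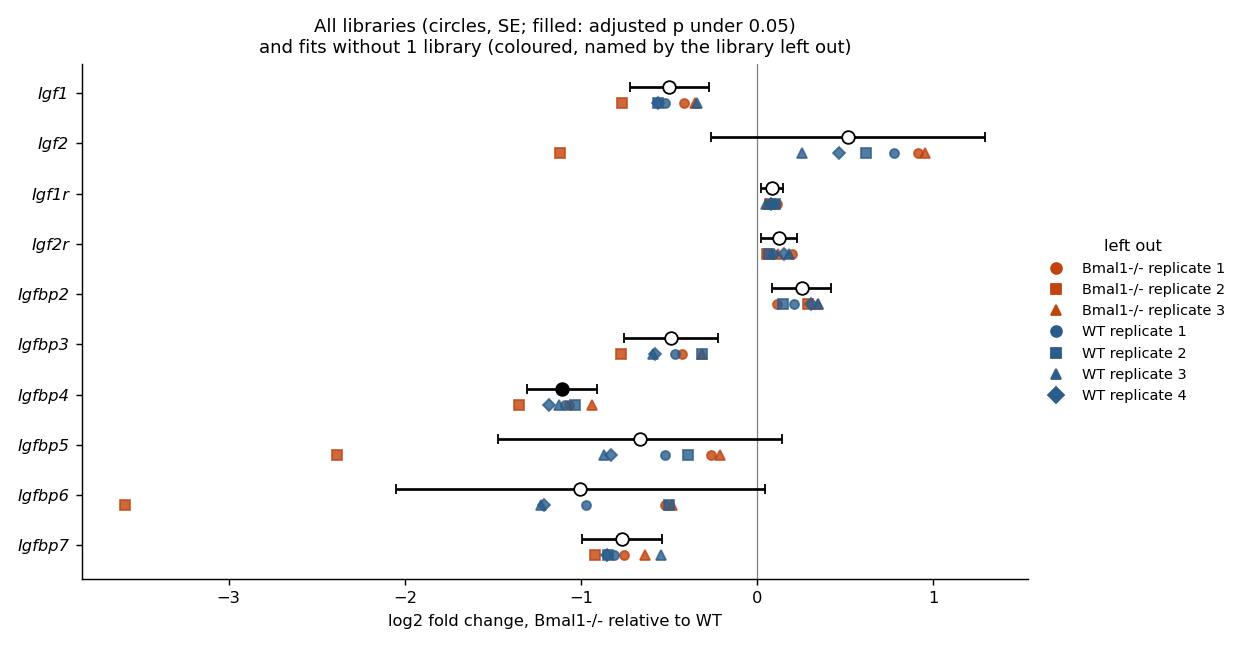
Log2 fold change of *Bmal1*-/- relative to WT (x axis) for the 10 genes, as a black circle with its standard error for all 7 libraries (filled for an adjusted p under 0.05) and as coloured symbols for the fits lacking the library named. *Igfbp4* stays between -1.35 and -0.94, while *Igf2*, *Igfbp5* and *Igfbp6* move to -1.12, -2.38 and -3.59 without *Bmal1*-/- replicate 2.

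*Igfbp5* and *Igfbp6*, the first a matrix-bound IGFBP and the second one that prefers IGF2, were split within the *Bmal1*-/- group. *Igfbp5* (ENSMUSG00000026185, chr1:72857932-72874884, minus strand) had 85.1, 574 and 60.5 CPM in *Bmal1*-/- replicates 1, 2 and 3 and 490, 580, 208 and 242 CPM in WT replicates 1 to 4. Replicates 1 and 3 of *Bmal1*-/- were below all WT libraries, and replicate 2 was level with the highest WT library. *Igfbp6* (ENSMUSG00000023046, chr15:102144362-102149511, plus strand) had the same order, with 5.31, 67.7 and 3.15 CPM against 54.6, 96.9, 25.1 and 27.4 CPM. Within *Bmal1*-/- the highest *Igfbp6* library exceeded the lowest by 21.5 times, against 3.86 times within WT. For *Igfbp5* these ratios were 9.49 and 2.78. In WT, both genes were higher in the 2 females (replicates 1 and 2) than in the 2 males (replicates 3 and 4). The log2 fold changes were -0.66 for *Igfbp5* (SE 0.81) and -1.0 for *Igfbp6* (SE 1.05), with Benjamini-Hochberg adjusted p of 0.620 and 0.560 in the edgeR quasi-likelihood test. Without *Bmal1*-/- replicate 2 they were -2.38 and -3.59, and neither passed.

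The fibroblast/meningeal markers had the same split. Their 12 genes summed to 425, 2522 and 333 CPM in *Bmal1*-/- replicates 1, 2 and 3 and to 1749, 2141, 1392 and 1238 CPM in WT replicates 1 to 4. All 12 had log2 fold changes below 0, with a median of -0.99, and none was called. Across the 7 libraries *Igfbp6* had r = 0.99 with the mean log2 level of these markers (Pearson, log2 of CPM + 1). *Igfbp5* had 0.97, *Igfbp3* 0.93, *Igfbp4* 0.89, *Igf1* 0.78, *Igfbp7* 0.67 and *Igf2* 0.65. The remaining members had -0.14 (*Igf1r*), -0.18 (*Igf2r*) and -0.57 (*Igfbp2*). These values hold the genotype difference. In the 4 WT libraries alone r was 0.98 for *Igfbp6*, 0.94 for *Igfbp5*, 0.98 for *Igfbp3*, 0.97 for *Igfbp4* and 0.63 for *Igf2*. There it was -0.35 for *Igf1*, -0.34 for *Igfbp7*, 0.80 for *Igf1r*, -0.92 for *Igf2r* and -0.95 for *Igfbp2*. *Bmal1*-/- replicate 2 had the highest sum, carried by *Col1a1*, *Col1a2* and *Col3a1* (640, 627 and 759 CPM), while its mean log2 level of the 12 markers, 5.73, lay within the WT range of 5.15 to 6.08. In that library *Igfbp4*, at 39.3 CPM, was under every WT library, and so were the markers *Lum* and *Aldh1a2*. The markers *Col1a1*, *Col1a2*, *Col3a1* and *Mgp* were above every WT library there, and all others of the list were within the WT range. The part of the fibroblast/meningeal markers in these results was not tested.

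**Figure D3:**
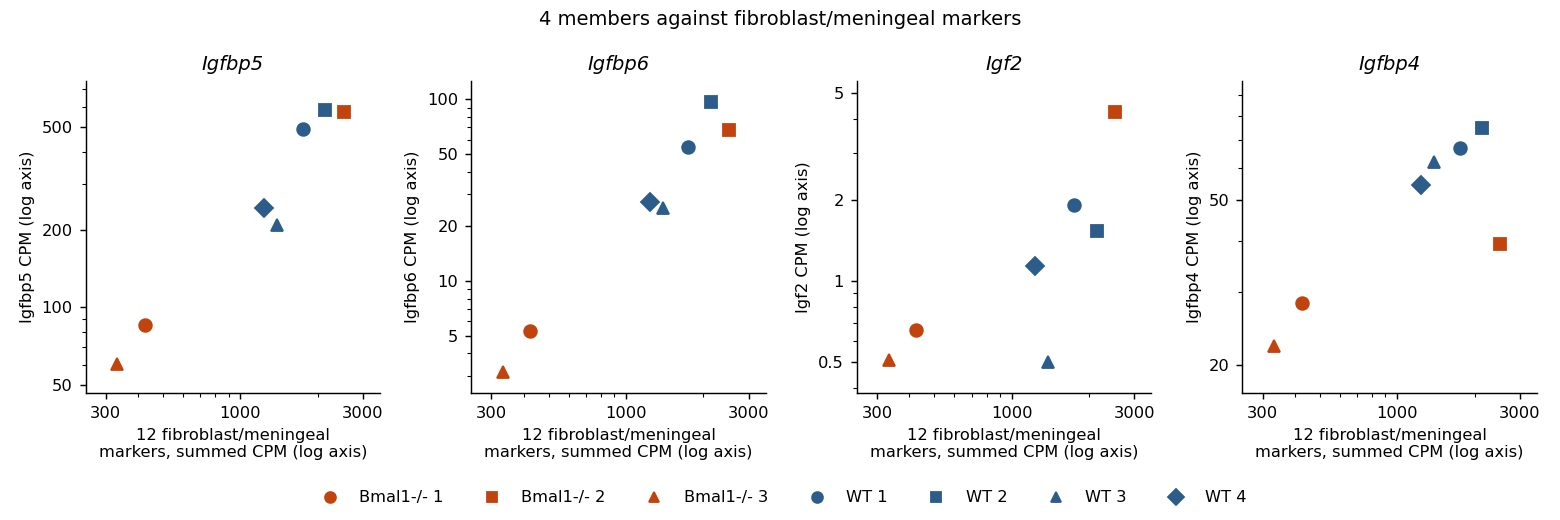
CPM of *Igfbp5*, *Igfbp6*, *Igf2* and *Igfbp4* (y axes, log scale) against the summed CPM of 12 fibroblast/meningeal markers (x axes, log scale) in 3 *Bmal1*-/- (orange) and 4 WT (blue) libraries, 1 point per library. *Bmal1*-/- replicate 2, at 2522 CPM on the x axis, sits beside the highest WT points for *Igfbp5* and *Igfbp6* but under all WT points for *Igfbp4*.

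*Igfbp3* (ENSMUSG00000020427, chr11:7206086-7213923, minus strand) encodes the main IGF carrier of serum. It had 86.7, 129 and 69.8 CPM in *Bmal1*-/- replicates 1, 2 and 3 and 141, 181, 105 and 107 CPM in WT replicates 1 to 4. *Bmal1*-/- replicate 2 again lay among the WT libraries and the other 2 libraries below them. The log2 fold change of -0.49 (SE 0.26) did not pass (edgeR quasi-likelihood test, Benjamini-Hochberg adjusted p = 0.312). *Igfbp2* (ENSMUSG00000039323, chr1:72824503-72852474, plus strand), an IGFBP abundant in the nervous system, had 242, 194 and 176 CPM in *Bmal1*-/- and 158, 134, 204 and 189 CPM in WT. The genotypes overlapped, and *Igfbp2* was the one IGFBP with a log2 fold change above 0, at 0.25 (SE 0.17; same edgeR test, adjusted p = 0.383). *Igfbp2* and *Igfbp5* are neighbours on chromosome 1, 5.5 kb apart on opposite strands, and their levels did not move together, with r = -0.56 over the 7 libraries.

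Per kilobase of exon, the WT means ran from 125 CPM per kb for *Igfbp7* and 92.6 for *Igfbp2* through 63.3 for *Igfbp5*, 45.9 for *Igfbp6*, 42.7 for *Igfbp3* and 14.6 for *Igfbp4* to 9.04 for *Igf2r*, 5.11 for *Igf1*, 4.45 for *Igf1r* and 0.222 CPM per kb for *Igf2*. In *Bmal1*-/- the means in the same unit were 73.5, 110, 40.0, 22.8, 30.4, 6.78, 9.87, 3.62, 4.72 and 0.317, in the same gene order, so that *Igfbp2* took the first place. With the longest transcript in place of the union of exons, *Igfbp2* was also first in WT, at 131 CPM per kb against 126 for *Igfbp7*. In WT the ranges over libraries of *Igfbp7* (102 to 177 CPM per kb) and *Igfbp2* (72.3 to 110) overlapped, as did those of *Igfbp2*, *Igfbp5*, *Igfbp6* and *Igfbp3* with their neighbours in the order and those of *Igf1* and *Igf1r*. *Igfbp4* lay apart from *Igfbp3* above and *Igf2r* below, and *Igf2* from all others. *Igf1* exceeded *Igf2* per length in every library, by 27.6, 6.50 and 31.9 times in *Bmal1*-/- replicates 1, 2 and 3 and by 14.7, 16.6, 76.6 and 22.2 times in WT replicates 1 to 4.

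The summed IGFBP level per length was 257, 400 and 195 CPM per kb in *Bmal1*-/- replicates 1, 2 and 3 and 391, 436, 392 and 316 CPM per kb in WT replicates 1 to 4. *Bmal1*-/- replicates 1 and 3 were below the WT range and replicate 2 within it. The share of *Igfbp4* in this sum was 2.49%, 2.23% and 2.59% in *Bmal1*-/- and 3.88%, 3.88%, 3.58% and 3.90% in WT. These shares were tighter within each genotype than the levels, at 2.44% ± 0.19 (SD, n = 3) and 3.81% ± 0.15 (SD, n = 4), and did not overlap. *Igfbp2* made up 51.1%, 26.2% and 48.8% in *Bmal1*-/- and 21.9%, 16.6%, 28.1% and 32.4% in WT, with replicate 2 of *Bmal1*-/- inside the WT range. *Igfbp3* kept shares of 8.53% to 13.3% over all 7 libraries. *Igfbp5* had 5.51%, 23.9% and 5.18% in *Bmal1*-/- and 8.84% to 22.1% in WT.

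**Figure D4:**
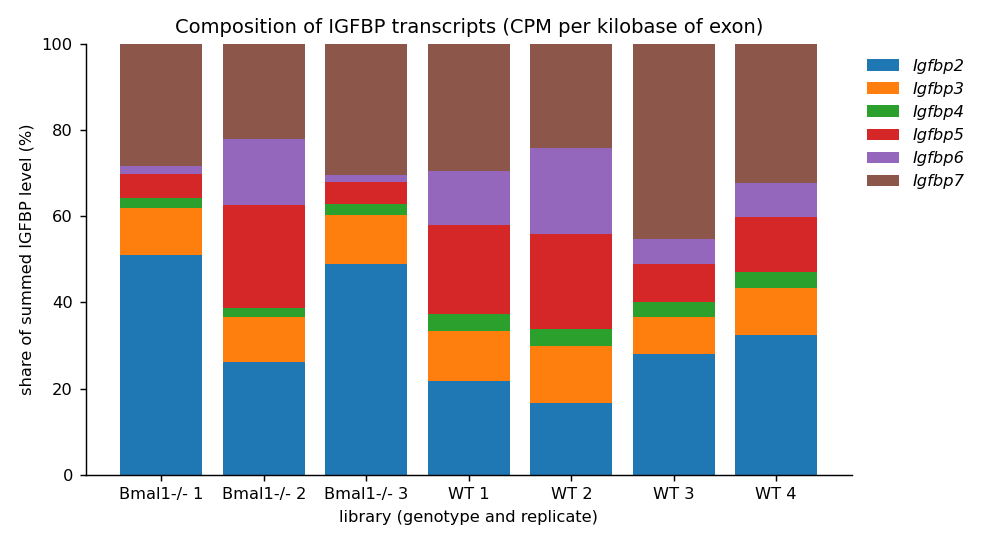
Share of each IGFBP gene (stacked colours, y axis in percent) in the summed IGFBP level, in CPM per kilobase of exon, for each of the 7 libraries (x axis). *Igfbp2* fills 51.1% and 48.8% of *Bmal1*-/- replicates 1 and 3, and the thin *Igfbp4* band is narrower in all 3 *Bmal1*-/- libraries (2.23% to 2.59%) than in WT (3.58% to 3.90%).

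Across libraries the members grouped into patterns. The closest pairs were *Igfbp5* and *Igfbp6* (r = 0.99), *Igfbp3* and *Igfbp6* (r = 0.95), *Igf1* and *Igfbp7* (r = 0.95) and *Igfbp3* and *Igfbp5* (r = 0.94), as Pearson's r of log2 CPM over 7 libraries. *Igfbp4* correlated with both sets, with 0.85 for *Igfbp6* and 0.83 for *Igfbp7*. *Igf1r* and *Igfbp7* ran in opposite directions (r = -0.78). These coefficients rest on 7 points that share libraries and genotype, and are descriptions. With so many genes and 7 libraries, the highest r are high by selection. Over all genes tested, those most like each member were named by r, 2 per member. For *Igfbp4* they were *Otud3* (r = 0.99) and *Sult5a1* (r = 0.98), and for *Igfbp7* *Kdelr2* and *Bloc1s4* (both r = 0.996). For *Igfbp5* they were *Crabp2*, which is also one of the fibroblast/meningeal markers, and *C2* (r = 0.996 and 0.994), and for *Igfbp6* they were *C2* and *Fzd2* (r = 0.998 and 0.996). For *Igf1* they were *Lpp* and *Trim26* (both r = 0.99), for *Igf2* *Pde6a* (r = 0.99) and *Slc35g1* (r = 0.97), and for *Igfbp3* *Pigh* and *Hcar1* (both r = 0.99). For *Igf1r* they were *Fundc1* (r = 0.997) and *Peg10* (r = 0.99), for *Igf2r* *Fam81b* (r = 0.97) and *Tbc1d15* (r = 0.95), and for *Igfbp2* *Isy1* (r = 0.97) and *Dbt* (r = 0.96).

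**Figure D5:**
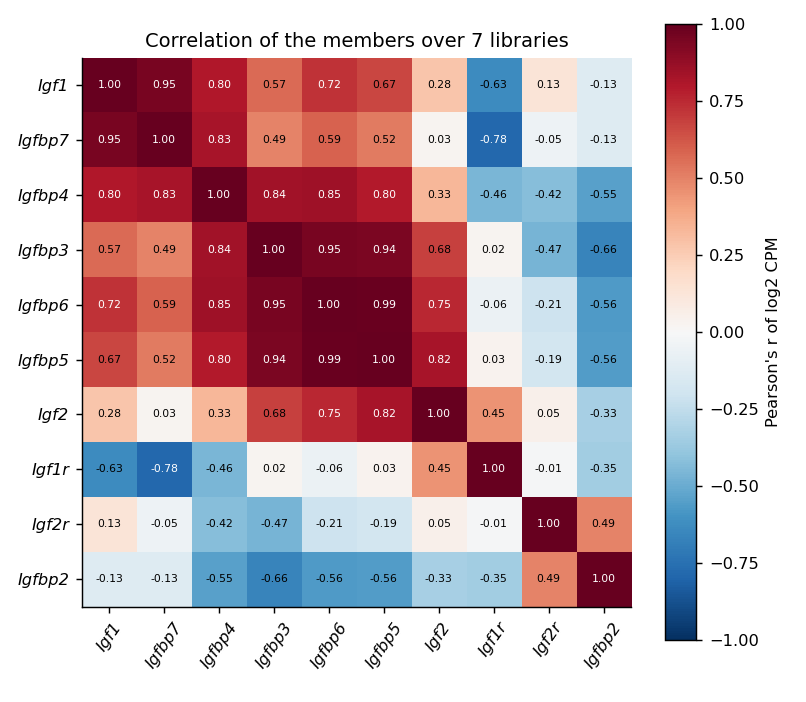
Pearson's r of log2 CPM between each pair of the 10 genes over the 7 libraries (colour scale from -1 to 1, values printed in the cells). *Igfbp3*, *Igfbp5* and *Igfbp6* form a block at 0.94 to 0.99, and *Igf1* and *Igfbp7* a pair at 0.95.

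Of the other genes of the pathway, 60 were in the count table. Among 12 IGFBP-like proteins, proteases and inhibitors, 10 were tested, 2 rose and none fell. Beside this, 0.654% of all genes tested were called higher and 0.915% lower. *Htra1*, a secreted serine protease that can cleave IGFBPs, had 363, 380 and 381 CPM in *Bmal1*-/- replicates 1, 2 and 3. In WT replicates 1 to 4 it had 220, 213, 186 and 241 CPM. All *Bmal1*-/- libraries were above all WT libraries, and the 3 were close to each other. Its mean rose from 215 ± 22.8 CPM (SD, n = 4) to 375 ± 10.1 CPM (SD, n = 3). On the log2 scale the rise was 0.80 (SE 0.09; edgeR quasi-likelihood test, Benjamini-Hochberg adjusted p = 0.0107). In the 7 fits without 1 library it was 0.74 to 0.86, and the call was lost without *Bmal1*-/- replicate 1 (adjusted p = 0.0665) or 3 (adjusted p = 0.0600). *Htra1* lies on chromosome 7, 17.6 Mb from *Arntl*, and *Fgfr2* overlaps it on the opposite strand. *Igfbpl1*, which encodes an IGFBP-like protein, also rose, with a log2 fold change of 6.05, and passed in all 7 fits. *Pappa*, the protease best known for cleaving IGFBP-4, had 19.4 ± 0.81 CPM (SD, n = 3) against 15.0 ± 2.55 CPM (SD, n = 4), higher in each *Bmal1*-/- library than in each WT library. Its log2 fold change of 0.37 did not pass (adjusted p = 0.208, same edgeR test). Every *Bmal1*-/- library was above every WT library for 13.4% of all genes tested. The median log2 fold change of the 10 was -0.02.

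Downstream of the receptors, none of 27 signalling genes was called, with 20 log2 fold changes above 0, 7 below and a median of 0.10. At an unadjusted p under 0.05 there were 4 lower and 3 higher, 7 of 27 genes beside 20.9% of all genes. DESeq2 called 1 lower and 5 higher among the 60 pathway genes, beside 921 lower and 573 higher over all genes. The genotypes did not overlap for 4 lower and 4 higher of the 27 signalling genes, near the 26.9% of all genes. *Pik3cb* and *Pik3r1* were among the higher ones, and *Pik3r3* and *Akt2* among the lower ones. The substrate genes *Irs1* and *Irs2* had log2 fold changes of 0.32 each (edgeR quasi-likelihood test, Benjamini-Hochberg adjusted p = 0.132 and 0.130), with every *Bmal1*-/- library above every WT library. The adaptor gene *Shc1* (-0.55, adjusted p = 0.143) and the translation repressor gene *Eif4ebp1* (-0.70, adjusted p = 0.194) had every *Bmal1*-/- library below every WT library in the same test. Of 10 genes for insulin, growth hormone, their receptors and signal transducers, 6 were tested and none was called, with a median log2 fold change of -0.15. The ligand genes *Ins1*, *Ins2* and *Gh* had no count in any library. The growth hormone receptor gene *Ghr* had 17.0 ± 1.20 CPM (SD, n = 3) in *Bmal1*-/- and 20.9 ± 2.17 CPM (SD, n = 4) in WT. This change of -0.29 on the log2 scale did not pass (same edgeR test, adjusted p = 0.187). Of 8 imprinted genes tested, a class to which *Igf2* and *Igf2r* belong, 7 were above 0 and 1 below, with none called and a median of 0.23. Of 3 genes for IGF2 mRNA-binding proteins only *Igf2bp2* passed the filter, with a log2 fold change of -0.33 (adjusted p = 0.325, same edgeR test).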

How the data were processed

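RNASeq of contused spinal cord at dpi 3 from 3 *Bmal1*-/- and 4 WT mice was analysed. The authors made libraries from poly-A RNA with a stranded kit, used Tophat2 for alignment (GRCm38) and HTSeq 0.10.0 for gene counts (version from the submitters' processing notes, which also name FastQC 0.10.1). They deposited raw counts without normalization. The annotation release and the strand setting of the counting are not given in the sources used here, so members with an overlapping gene are uncertain. Total counts were 38529644 to 44096737 per library, and the common dispersion was 0.0342.

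Genes were filtered with filterByExpr on genotype, normalized with TMM and tested across all 15743 genes that passed with edgeR's quasi-likelihood test (edgeR 4.0.16, limma 3.58.1, R 4.3.3). P-values were adjusted after Benjamini-Hochberg, and 0.05 was the threshold. Correlations between genes and between libraries used log2 CPM with a prior count of 2. Those with the marker lists used log2 of CPM + 1. Gene positions and exon lengths came from GENCODE M21, which held 21939 of the 21965 genes, and start regions from RefSeq. Alternatives were DESeq2 1.42.0, which the study used, limma-voom, 2 other normalizations (RLE, upper quartile), filters at 1 count in total or a mean of 10, a term for sex, a replicate block, omission of each library and, for lengths, the longest transcript. The omission of WT replicate 3 and *Bmal1*-/- replicate 2 together was chosen after seeing the data. The edgeR, limma-voom and DESeq2 fits on genotype alone were also run on simulated counts, with no criterion to pass. Other steps were not run on simulated counts. Plots were drawn with matplotlib 3.10.9 in python 3.11.15.

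The genes named are all 10 members, *Arntl*, called pathway genes and, per member, the 2 genes with the highest r. Other named pathway and marker genes were chosen after their values were seen. The members and lists were chosen with earlier results of these data known, and *Igfbp4* is among genes the study displayed from the same libraries, so its values are not independent evidence. P-values measure the spread between these mice only.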

Additional observations from a re-analysis of the deposited data

How the results depend on the processing

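*Igfbp4* was the one member called lower in the 6 settings with another normalization, filter, limma-voom or sex as a covariate, and no member was called higher in any of the 16 alternatives. DESeq2 called 2 members lower. Without each library in turn, 0 to 1 were. With both WT replicate 3 and *Bmal1*-/- replicate 2 left out, a choice made after seeing the data, 5 were called lower (*Igf1*, *Igfbp4*, *Igfbp5*, *Igfbp6* and *Igfbp7*). Their log2 fold changes were then -0.61, -1.37, -2.59, -3.82 and -0.70. *Igfbp4* ran from -1.35 to -0.94 without each library. *Igf2* ran from -1.12 to 0.96, was reversed without *Bmal1*-/- replicate 2, and was -1.38 without both. The cause was not tested. Of the other pathway genes, DESeq2 called 1 lower and 5 higher. Without each library in turn 0 to 1 were lower and 1 to 3 higher, and without both libraries 2 were lower. Over all genes, 144 were lower and 103 higher. These counts were 921 and 573 with DESeq2, 27 to 439 and 30 to 291 without each library, and 625 and 273 without both. With the longest transcript as length, *Igfbp3* and *Igfbp7* made up 11.6% and 22.3% of the IGFBP sum in *Bmal1*-/-, and *Igfbp2* ranked above *Igfbp7* in WT.

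Replicate numbers are shared by the genotypes, and the labels state no pairing of the mice. Deviations of same-numbered libraries correlated at -0.17, 0.18 and -0.30, which in so few libraries cannot exclude a pairing. WT replicate 4 has no *Bmal1*-/- library of its number. With a replicate block, 0 members, 0 other pathway genes in each direction and 0 of all genes were called by edgeR's quasi-likelihood test (1066 lower and 524 higher at an unadjusted p under 0.05). *Igfbp4* then had a log2 fold change of -1.22 (adjusted p = 0.155).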
